A study of Mus musculus with 13 samples.

Results

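miR-124 and miR-9 are microRNAs (miRNAs) that neurons hold in large amounts, and each is cut from 3 hairpins encoded at separate places in the mouse genome. The members followed here were the hairpins mmu-mir-124-1, mmu-mir-124-2, mmu-mir-124-3, mmu-mir-9-1, mmu-mir-9-2 and mmu-mir-9-3, taken by name, which were 6 of the 903 hairpins with a read in any library. They gave 4 of the 1384 mature miRNAs, namely miR-124-3p, miR-124-5p, miR-9-5p and miR-9-3p, and 12 of the 1514 pairs of a hairpin and a mature miRNA. All 4 passed the filter on low counts, which left 647 mature miRNAs to test.

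Small RNA was sequenced from 2 brain regions of FVB/N mice, the parent strain and control, and of TgR mice. The TgR line carries, on the FVB/N strain, a transgene for AChE-R, the human readthrough variant of acetylcholinesterase, which a minimal CMV (cytomegalovirus) promoter-enhancer keeps expressed in excess. The hippocampus was sampled in 3 FVB/N and 3 TgR mice, and the prefrontal cortex (PFC) in 3 FVB/N and 4 TgR mice, with 1 library per mouse and region and no treatment named. The comparisons asked whether AChE-R excess goes with a change in miRNA levels in each region. The labels give neither the age nor the sex of these mice, they do not say whether a mouse gave both regions, and they do not sort the TgR mice by behaviour. After each mature miRNA was counted once, the libraries held 5350259 to 11111883 counts, so that 3 counts equalled 0.270 to 0.561 CPM (counts in 1e6 counts). The rarest member, miR-124-5p, had 628 to 1840 counts per library, far above that floor.

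A miRNA hairpin is cut by Drosha and Dicer into a short duplex, and the arm that Argonaute keeps then represses mRNAs that pair with its seed, the bases near its 5′ end. In the brain miR-124 is known for holding down transcripts of non-neuronal cells in neurons, and miR-9 for acting in neural progenitors and in neuronal differentiation. The 3p arm of miR-124 and the 5p arm of miR-9 are the arms for which these families are best known.

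The mature sequences of miR-9 are shown because both arms were abundant here and carry unrelated seeds. They come from RefSeq (GRCm38.p6), are written 5′ to 3′, and have the seed, bases 2 to 8, in capitals.
miR-9-5p: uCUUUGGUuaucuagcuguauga
miR-9-3p: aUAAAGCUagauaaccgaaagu
Of the 6 hairpins 3 matched an entry of that table. Among its 1679 mature miRNA names, 0 others had the seed of miR-9-5p and 0 others had the seed of miR-9-3p.

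The 3 hairpins of miR-9 are shown because a read of either arm cannot tell them apart. Both mature arms are in capitals and are identical in all 3, and the loop between them is 16, 14 and 16 bases long.
mmu-mir-9-1: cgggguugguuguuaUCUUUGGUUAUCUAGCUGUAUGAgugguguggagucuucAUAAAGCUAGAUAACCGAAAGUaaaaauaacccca
mmu-mir-9-2: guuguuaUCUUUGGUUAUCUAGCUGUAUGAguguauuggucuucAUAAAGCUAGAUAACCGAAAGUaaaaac
mmu-mir-9-3: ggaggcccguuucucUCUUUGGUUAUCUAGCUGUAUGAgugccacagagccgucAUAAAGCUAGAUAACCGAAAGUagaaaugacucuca

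All 6 hairpins lie on the plus strand, on 5 chromosomes (GRCm38.p6, genes from GENCODE M21). mmu-mir-124-1 is at chr14:64590657-64590741 in an exon of the lincRNA gene Mir124a-1hg, mmu-mir-124-2 at chr3:17795662-17795770 partly in an exon of the lincRNA gene Mir124-2hg, and mmu-mir-124-3 at chr2:180894040-180894107, which overlaps the lincRNA gene Gm27032 only in part. mmu-mir-9-1 is at chr3:88215598-88215686 in an intron of the lincRNA gene Gm3764, mmu-mir-9-2 at chr13:83738814-83738885 in an exon of the lincRNA gene C130071C03Rik, and mmu-mir-9-3 at chr7:79505264-79505353 in an intron of the lincRNA gene Mir9-3hg. None of these hosts codes for a protein, and which of the hairpins made the reads could not be told from the counts.

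The deposited counts list the same reads at each hairpin. miR-124-3p had exactly the same count at its 3 hairpins in all 13 libraries. miR-124-5p differed between hairpins by at most 0.122%, miR-9-5p by at most 0.0357%, and miR-9-3p was 0.398% to 0.586% lower at mmu-mir-9-3 than at the other hairpins of miR-9. Each mature miRNA was therefore taken once, at its largest count, and the levels below do not divide it among hairpins.

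Together the 4 mature miRNAs took 11.1% to 14.5% of the counts of a library. miR-9-5p averaged 108147 CPM and was the second most abundant miRNA in every library, behind miR-128-3p with a mean of 216358 CPM. The next places over all libraries went to miR-26a-5p with 67094 CPM, miR-99a-5p with 58144 CPM and miR-218-5p with 38588 CPM. miR-9-3p ranked 10 to 16 in single libraries, miR-124-3p 22 to 30 and miR-124-5p 182 to 214. Both families were thus high in all libraries of both regions, with miR-9 far above miR-124, although ligation and amplification can favour some miRNAs over others and levels of different miRNAs are not on a common scale of molecules.

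**Figure D1:**
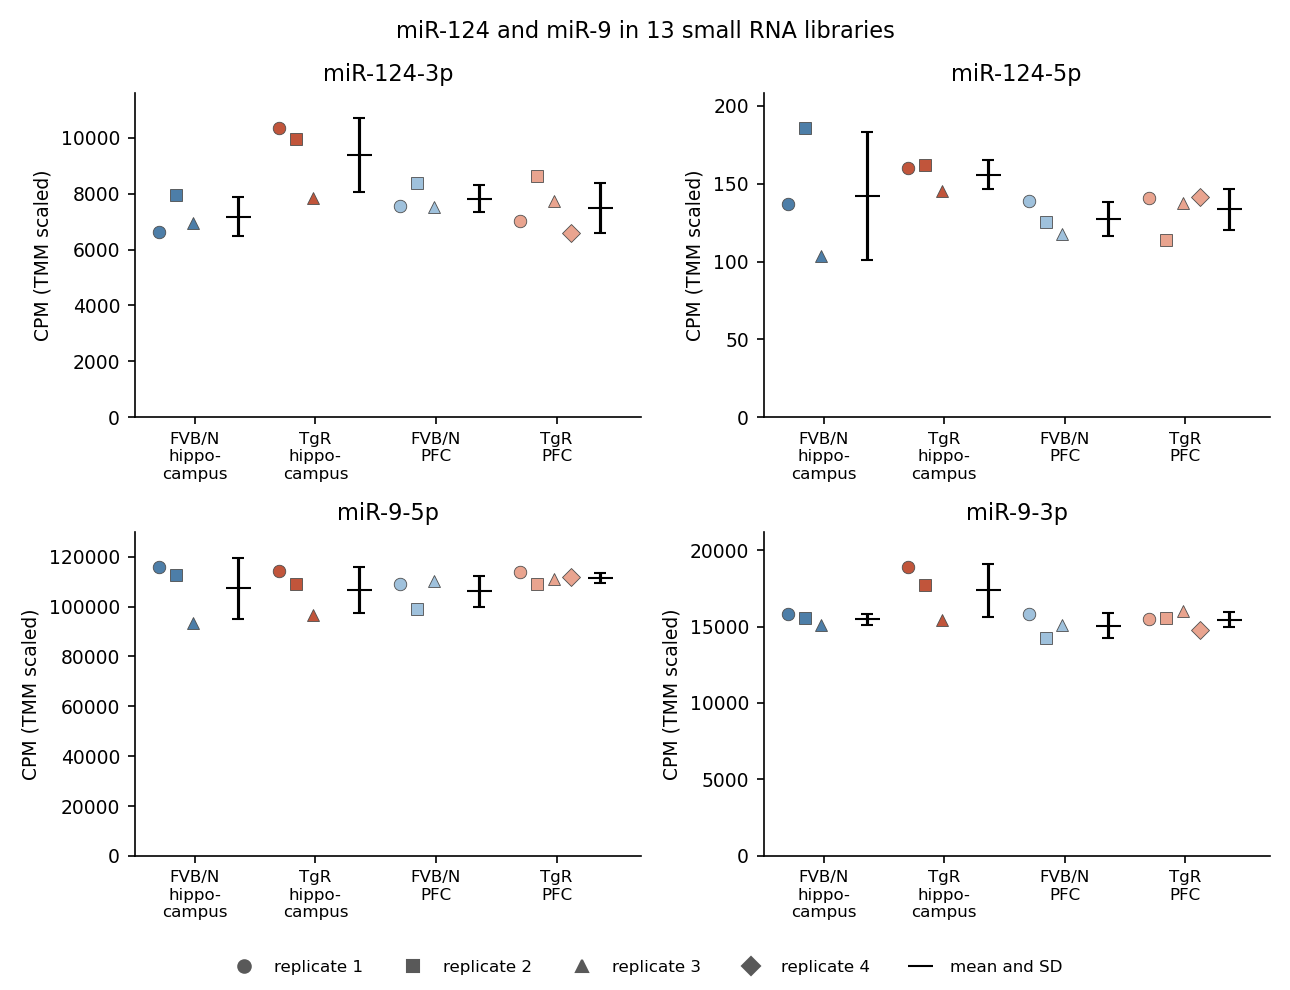
Level of each mature member in CPM (vertical axis, from 0) in every library, by group (horizontal axis), with the group mean and SD beside the points. miR-124-3p and miR-9-3p reach their highest levels, 10351 and 18899 CPM, in a TgR hippocampal library, and miR-9-5p stays between 93456 and 115924 CPM throughout.

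miR-124-3p was highest in TgR hippocampi, but not beyond the test. It measured 10351, 9956 and 7860 CPM in the TgR hippocampal libraries. In FVB/N hippocampi it measured 6634, 7969 and 6948 CPM. Replicates 1 and 2 of the TgR hippocampus were above all other 11 libraries, whereas replicate 3 lay just below the highest FVB/N hippocampus, so the groups overlapped by that pair. The group means were 9389 ± 1339 CPM (SD, n = 3) and 7184 ± 698 CPM (SD, n = 3), a log2 fold change of 0.39 (SE 0.13, 95% confidence interval 0.10 to 0.67) or 1.31-fold. The unadjusted p of edgeR was 0.0121, rank 51 of 647, and the adjusted p was 0.149, over the threshold of 0.05. As a share of the counts of a library, with no scaling between libraries, the TgR hippocampi had 1.03%, 1.06% and 0.839% and the FVB/N hippocampi 0.622%, 0.833% and 0.667%, so on that scale the groups were just apart. Leaving out each hippocampal library in turn gave log2 fold changes of 0.30 to 0.45, and in none of the 15 alternatives run did it pass the threshold (adjusted p of 0.0934 to 0.449 by edgeR or DESeq2). In bulk tissue, more cells of a type and more of a miRNA per cell cannot be told apart.

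In the PFC the same arm showed no such step. The FVB/N libraries gave 7555, 8377 and 7533 CPM for miR-124-3p. The TgR libraries gave 7008, 8647, 7750 and 6606 CPM. The TgR libraries surrounded the FVB/N range on both sides, and the log2 fold change was -0.06 (SE 0.12, interval -0.33 to 0.21, edgeR adjusted p = 0.999). By group mean the order was TgR hippocampus (9389 CPM), FVB/N PFC (7822 ± 481 CPM, SD, n = 3), TgR PFC (7503 ± 898 CPM, SD, n = 4) and FVB/N hippocampus (7184 CPM). Each of these groups overlapped its neighbours in single libraries, so the order did not go beyond their spread. Between regions, miR-124-3p in the hippocampus against the PFC had a log2 fold change of 0.32 in TgR mice (SE 0.12, unadjusted p = 0.0211, edgeR adjusted p = 0.118) and of -0.12 in FVB/N mice (SE 0.13, edgeR adjusted p = 0.663).

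miR-124-5p, the minor arm, was the rarest member. In the hippocampus it measured 137, 186 and 104 CPM in FVB/N mice and 160, 162 and 145 CPM in TgR mice. In the PFC it measured 139, 125 and 118 CPM in FVB/N mice and 141, 114, 138 and 141 CPM in TgR mice. The FVB/N hippocampi held both the highest and the lowest of the 13 values, and the 3 TgR hippocampi were close together inside that range. TgR against FVB/N gave a log2 fold change of 0.13 in the hippocampus (SE 0.19, edgeR adjusted p = 0.796; -0.04 without replicate 3 and 0.37 without replicate 2 of the FVB/N hippocampus) and of 0.07 in the PFC (SE 0.18, edgeR adjusted p = 0.999). Every TgR hippocampus was above every TgR PFC, with a log2 fold change of 0.22 (SE 0.18, edgeR adjusted p = 0.521), so this was 1 of 4 members whose groups did not overlap there, against 27.4% of all tested miRNAs. The other 3 comparisons of 2 groups had 0 of 4 members without overlap, against 21.6% for genotype in the hippocampus, 4.64% for genotype in the PFC and 21% for region in FVB/N mice.

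miR-9-5p, the main arm of its family, was nearly level across the groups. It measured 115924, 112644 and 93456 CPM in FVB/N hippocampi and 114467, 109265 and 96527 CPM in TgR hippocampi. In the PFC it measured 109081, 98876 and 110250 CPM in FVB/N mice and 113729, 108971, 110985 and 111731 CPM in TgR mice. Replicate 3 was lowest in both hippocampal groups, the 4 TgR PFC libraries were close together, and all groups overlapped. The log2 fold change of TgR against FVB/N was -0.01 in the hippocampus (SE 0.10, interval -0.22 to 0.20, edgeR adjusted p = 0.979; the sign turned with no scaling beyond library size, and with no filter) and 0.07 in the PFC (SE 0.09, interval -0.13 to 0.27, edgeR adjusted p = 0.999), where it fell to -0.00120 without replicate 2 of the FVB/N PFC. Hippocampus against PFC gave 0.02 in FVB/N mice (interval -0.19 to 0.23) and -0.06 in TgR mice (interval -0.26 to 0.14), and both signs turned with no scaling beyond library size. The first sign turned in 9 of the 15 alternatives run, DESeq2 and its size factors among them, so it has no steady direction. The group means of 106069 to 111354 CPM could not be ordered beyond their spread.

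miR-9-3p, the partner arm with its own seed, leaned the way of miR-124-3p. In the hippocampus it measured 15797, 15570 and 15073 CPM in FVB/N mice and 18899, 17727 and 15454 CPM in TgR mice. In the PFC it measured 15837, 14253 and 15112 CPM in FVB/N mice and 15515, 15537, 16007 and 14775 CPM in TgR mice. Replicates 1 and 2 of the TgR hippocampus were again above all other 11 libraries, while replicate 3 fell among the FVB/N hippocampi. The log2 fold change of TgR against FVB/N was 0.17 in the hippocampus (SE 0.10, interval -0.04 to 0.37, edgeR adjusted p = 0.460) and 0.04 in the PFC (SE 0.09, edgeR adjusted p = 0.999). Hippocampus against PFC gave 0.17 in TgR mice (SE 0.09, edgeR adjusted p = 0.296; 0.10 to 0.19 without 1 library at a time) and 0.04 in FVB/N mice (SE 0.10, edgeR adjusted p = 0.886). Both values of 0.04 turned to -0.03 without replicate 2 of the FVB/N PFC.

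**Figure D2:**
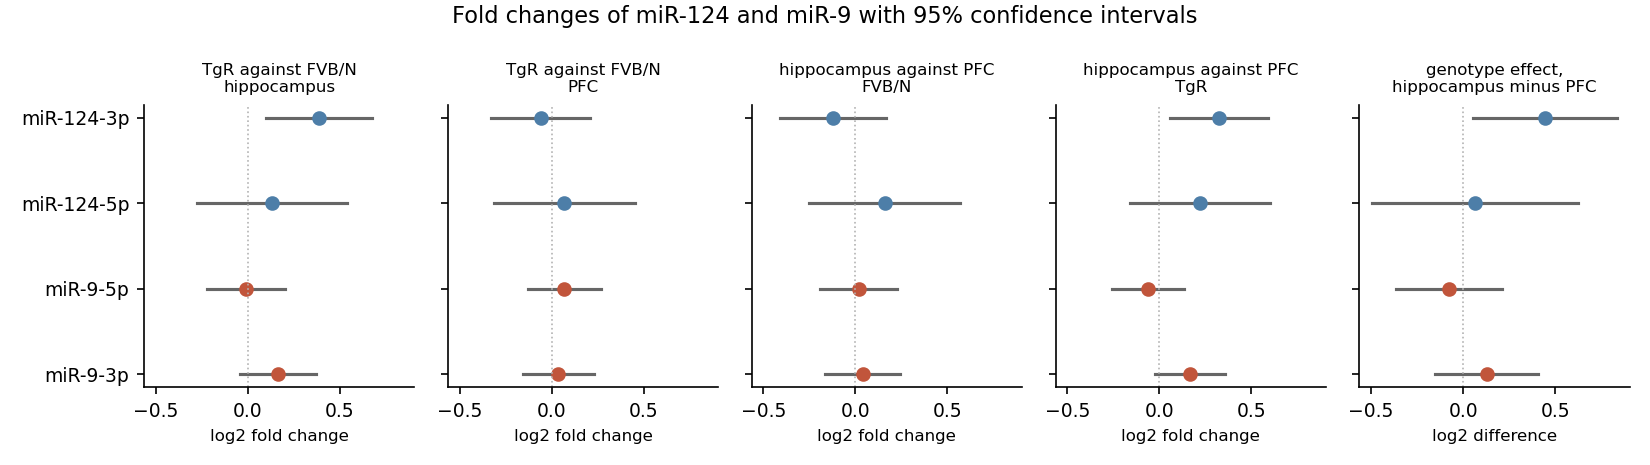
Fitted log2 fold change (points; last panel, difference of log2 fold changes) of the 4 mature members in the 5 comparisons, with 95% confidence intervals as lines and 0 dotted. Most intervals cross 0, and those of miR-124-3p begin above it, at 0.10, 0.06 and 0.05, for genotype in the hippocampus, region in TgR mice and the difference between regions, before adjustment over the 647 miRNAs tested.

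None of the 4 members passed the adjusted threshold of edgeR in any of the 5 comparisons. For TgR against FVB/N in the hippocampus, 0 of 4 passed against 4.64% of the 647 tested (30 miRNAs), and 1 of 4, miR-124-3p, had an unadjusted p under 0.05 against 15.1% of all. In the PFC 0 of 4 passed against 0.155% of all (1 miRNA), with 0 of 4 under an unadjusted p of 0.05 against 3.25% of all. Between regions 0 of 4 passed in FVB/N mice against 7.57% of all, with 0 of 4 under an unadjusted p of 0.05 against 20.9% of all. In TgR mice 0 of 4 passed against 10.2% of all, with 1 of 4, miR-124-3p, under an unadjusted p of 0.05 against 23% of all. DESeq2 also called 0 of 4 in each of the 5 comparisons. Of all 647 it called 37 and 1 for genotype in the hippocampus and PFC. It called 74 and 82 for region in FVB/N and TgR mice, and 11 for the difference between regions. Its unadjusted p was under 0.05 for 1 of 4, miR-124-3p, for genotype in the hippocampus, against 16.1% of all. In the other 4 comparisons, in the same order, it was so for 0 of 4, against 3.56%, 20.9%, 23.1% and 8.36% of all. The comparisons of genotype and of region share libraries, so they are not separate evidence.

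The difference of the genotype effect between the regions was tested on its own. For miR-124-3p it was 0.45 on the log2 scale (SE 0.18, interval 0.05 to 0.84, unadjusted p = 0.0286, edgeR adjusted p = 0.494), with the hippocampus the higher. It was 0.06 for miR-124-5p (SE 0.26; -0.11 to 0.31 without 1 library at a time), 0.13 for miR-9-3p (SE 0.13) and -0.08 for miR-9-5p (SE 0.13), the last with a sign that turned with no scaling beyond library size. Of the members 0 of 4 passed by edgeR, against 0.464% of all tested (3 miRNAs), with 1 of 4 at an unadjusted p under 0.05 against 8.5% of all. By DESeq2 0 of 4 passed, against 11 of all 647. A different response of the regions was therefore not shown for these miRNAs.

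Spread between mice was modest. The coefficient of variation within groups, averaged over the 4 groups, was 5.26% for miR-9-3p, 6.90% for miR-9-5p, 10.5% for miR-124-3p and 13.3% for miR-124-5p. The median over the 213 miRNAs with a mean of at least 100 CPM was 13.1%. Both arms of miR-9 and the main arm of miR-124 thus varied less between mice than the typical abundant miRNA. The average of miR-124-5p rests on the FVB/N hippocampus with 29.0%, since the other 3 groups had 5.92%, 8.47% and 9.78%.

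Ratios of 2 counts from the same library do not depend on the scaling between libraries. The count of miR-124-3p was 42.9 to 75.8 times that of miR-124-5p, and that of miR-9-5p was 6.06 to 7.56 times that of miR-9-3p. In counts, the arms of miR-124 were thus far more unequal than those of miR-9 in each library. Ligation and amplification can favour some sequences, so these are ratios of reads and not of molecules. miR-9-5p had 11 to 17.5 times the count of miR-124-3p.

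**Figure D3:**
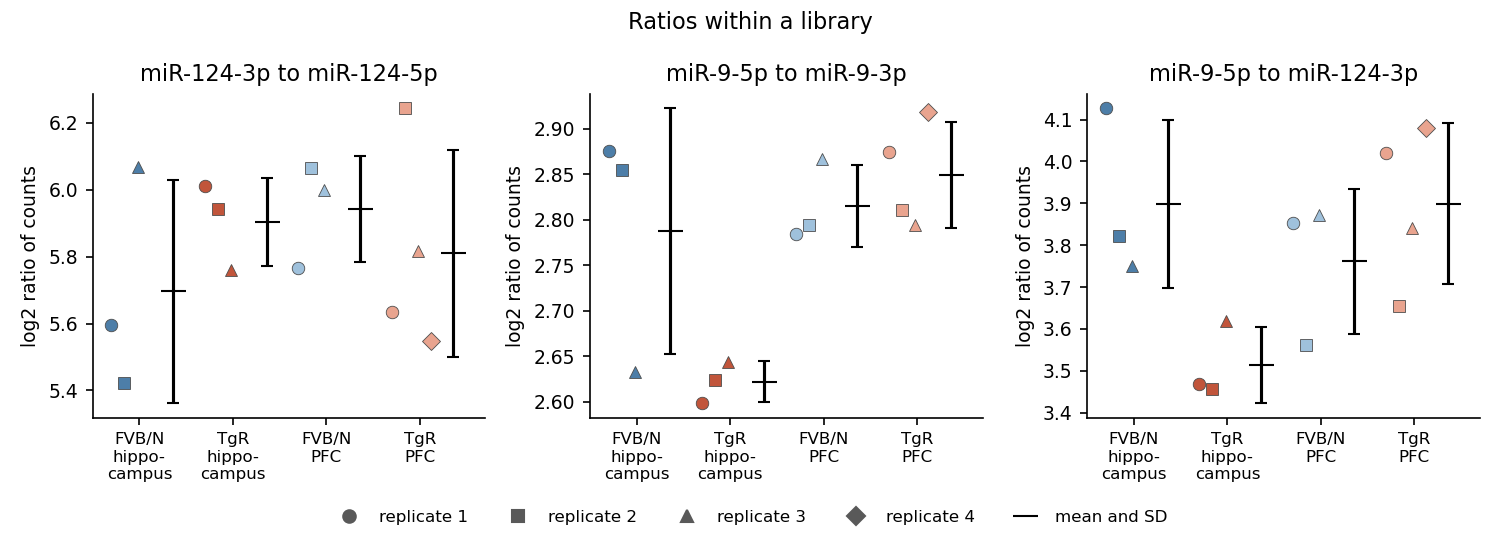
Log2 ratio of counts within a library (vertical axes, which do not begin at 0) for the arms of miR-124, the arms of miR-9 and the main arms of both families, by group, with mean and SD. The TgR hippocampal libraries are lowest or nearly lowest in the last 2 panels, at 2.60 to 2.64 and 3.46 to 3.62.

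The balance of the arms of miR-9 was lowest in TgR hippocampi. The log2 ratio of miR-9-5p to miR-9-3p was 2.60, 2.62 and 2.64 in TgR hippocampi and 2.88, 2.85 and 2.63 in FVB/N hippocampi. In the PFC it was 2.78, 2.79 and 2.87 in FVB/N mice and 2.87, 2.81, 2.79 and 2.92 in TgR mice. All 3 TgR hippocampi and replicate 3 of the FVB/N hippocampus lay below the 9 other libraries. The ratio was lower in the hippocampus than in the PFC by 0.13 on average over the genotypes (log2 difference -0.13, exact permutation test within genotype, two-sided, p = 0.0400), which did not hold after adjustment over the 6 ratio tests (adjusted p = 0.240, exact permutation). The difference was -0.23 in TgR mice by themselves, where every hippocampus was lower (exact permutation p = 0.0286, the smallest that 3 against 4 libraries allow), and -0.03 in FVB/N mice by themselves (exact permutation p = 0.9). The p-values within a single genotype or region, here and for the ratios below, are unadjusted. After adjustment over all tests within single strata, none passed the threshold. TgR against FVB/N gave -0.17 in the hippocampus (exact permutation p = 0.2) and 0.03 in the PFC (exact permutation p = 0.429), and the average over both regions of -0.07 thus covers opposite signs (exact permutation p = 0.296, adjusted 0.512).

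The log2 ratio of miR-9-5p to miR-124-3p was 3.47, 3.46 and 3.62 in TgR hippocampi and 4.13, 3.82 and 3.75 in FVB/N hippocampi. In the PFC it was 3.85, 3.56 and 3.87 in FVB/N mice and 4.02, 3.66, 3.84 and 4.08 in TgR mice. The TgR hippocampi were below every FVB/N hippocampus and every TgR PFC, and overlapped the FVB/N PFC through replicate 2 of that group. Within the hippocampus the difference between genotypes was -0.39, with an exact permutation p of 0.100, the smallest that 3 against 3 libraries allow, and in the PFC it was 0.14 (exact permutation p = 0.4). Over both regions TgR against FVB/N gave -0.12 (exact permutation p = 0.341, adjusted 0.512), an average over opposite signs. Hippocampus against PFC gave -0.39 in TgR mice, where every hippocampus was lower (exact permutation p = 0.0571), and 0.14 in FVB/N mice (exact permutation p = 0.6), and so its average of -0.12 over both genotypes also covers opposite signs (exact permutation p = 0.317, adjusted 0.512).

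The log2 ratio of miR-124-3p to miR-124-5p had group means from 5.70 ± 0.33 in FVB/N hippocampi (SD, n = 3) to 5.94 ± 0.16 in the FVB/N PFC (SD, n = 3), and all groups overlapped. The difference of TgR against FVB/N was 0.04 (exact permutation p = 0.796, adjusted 0.796), an average over 0.21 in the hippocampus and -0.13 in the PFC. That of hippocampus against PFC was -0.08 (exact permutation p = 0.610, adjusted 0.732), an average over -0.25 in FVB/N and 0.09 in TgR mice. With 700 assignments, the smallest p of each of these tests was 0.00286.

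The pattern over the 13 libraries was next compared with that of 212 other miRNAs with a mean of at least 100 CPM. The distance was the root mean square difference of log2 CPM after each miRNA was centred on its own mean. Nearest to miR-124-3p were miR-384-5p (304 CPM) at 0.13, miR-16-5p (982 CPM) at 0.13 and miR-361-5p (184 CPM) at 0.13, against a median of 0.33 over all 212. miR-9-3p took place 5 at 0.14, miR-9-5p took place 20 at 0.21, and miR-124-5p, the arm from the same hairpins, took place 28 at 0.23. So the main arm of miR-124 ran closer to miR-9-3p than to its own partner arm.

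Nearest to miR-9-5p were miR-487b-3p (373 CPM) at 0.09, miR-24-3p (8065 CPM) at 0.10 and miR-361-3p (793 CPM) at 0.10, against a median of 0.26 over all 212. miR-9-3p again took place 5, at 0.11, and miR-124-5p and miR-124-3p took places 44 and 61. A small distance does not separate miRNAs that were both nearly level from miRNAs that moved together.

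**Figure D4:**
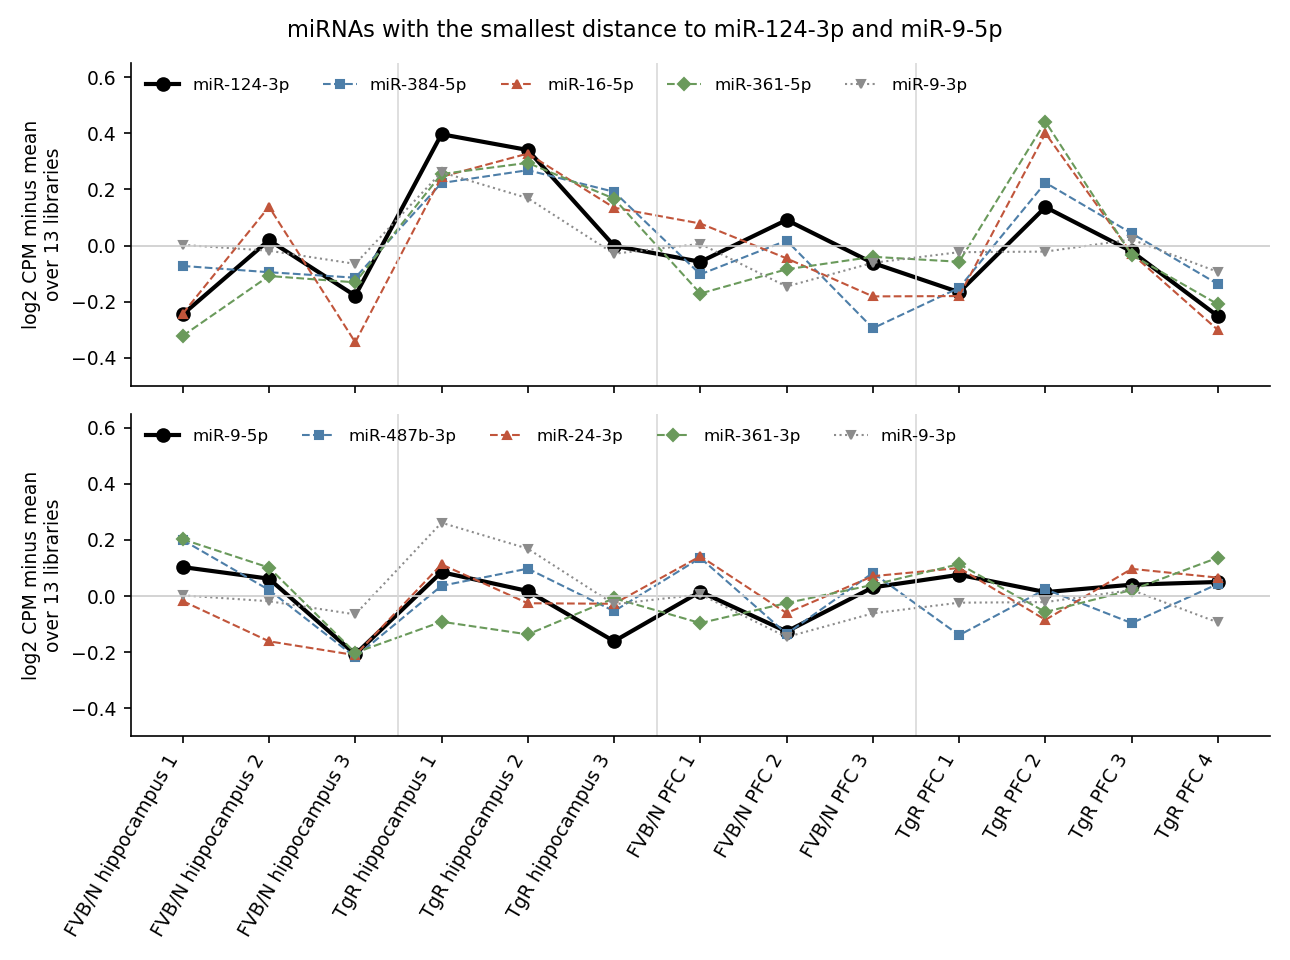
Log2 CPM minus its mean over the 13 libraries (vertical axis) in each library (horizontal axis, in group order) for miR-124-3p and miR-9-5p (black), their 3 nearest miRNAs by root mean square difference, and miR-9-3p (grey). miR-124-3p stands at 0.40 and 0.34 in replicates 1 and 2 of the TgR hippocampus and close to its mean in replicate 3.

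A list of 18 other miRNAs known from neurons was followed beside them, and all 18 were tested. The list was chosen with earlier results of these data known, so its counts beside those of all tested miRNAs are descriptive only. For TgR against FVB/N, edgeR called 0 higher and 1 lower in the hippocampus and 0 higher and 1 lower in the PFC. The shares over all tested were 4.64% and 0.155%. By edgeR 5 of 18 in the hippocampus and 3 of 18 in the PFC had an unadjusted p under 0.05, against 15.1% and 3.25% of all. The 3 in the PFC were miR-383-5p, miR-129-1-3p (log2 fold change -0.86, SE 0.40) and miR-129-2-3p (-0.92, SE 0.42). The last 2 rest on replicate 1 of the FVB/N PFC, with 771 and 1477 CPM. Their lowest FVB/N PFC values were 182 and 291 CPM, and their highest TgR PFC values 236 and 433 CPM. DESeq2 called 2 of 18 in the hippocampus and 1 of 18 in the PFC, against 37 and 1 of all 647. Both calls of edgeR were miR-383-5p, with a mean of 778 CPM (SD 220) in the 3 FVB/N hippocampi and 265 CPM (SD 47.6) in the 3 TgR hippocampi, and both held in every alternative run. Its log2 fold change was -1.55 in the hippocampus (SE 0.23, edgeR adjusted p = 0.00145) and -1.72 in the PFC (SE 0.21, edgeR adjusted p = 0.000771), where it was the sole miRNA called. The median log2 fold change of the list was 0.04 in the hippocampus and -0.02 in the PFC, beside 0.01 and 0.01 over all 647.

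Between the regions edgeR called 2 of the 18 higher and 4 lower in the hippocampus than in the PFC in FVB/N mice, against 7.57% of all tested. There 11 of 18 had an unadjusted p under 0.05 by edgeR, against 20.9% of all. In TgR mice it called 0 higher and 2 lower, against 10.2% of all tested, while 9 of 18 had an unadjusted p under 0.05 against 23% of all. DESeq2 called 10 of 18 in FVB/N and 6 of 18 in TgR mice, against 74 and 82 of all 647. The higher ones were miR-7a-5p (log2 fold change 1.13, SE 0.18, edgeR adjusted p = 0.00276) and miR-218-5p (0.65, SE 0.17, edgeR adjusted p = 0.0340). The lower ones in FVB/N mice were miR-132-3p, known for its induction by neuronal activity (-1.11, SE 0.20, edgeR adjusted p = 0.00445), miR-135a-5p (-0.75, SE 0.17), miR-383-5p (-0.80, SE 0.23) and miR-128-3p (-0.57, SE 0.16). miR-128-3p and miR-135a-5p were the 2 lower in TgR mice (-0.65, SE 0.15 and -0.65, SE 0.16). Among these calls between regions, those of miR-132-3p and miR-7a-5p held in all 15 alternatives run. In FVB/N mice the call of miR-383-5p was lost without any 1 of the 6 libraries (log2 fold change -0.97 to -0.59), that of miR-128-3p without replicate 2 or 3 of the PFC or 1 or 2 of the hippocampus (-0.60 to -0.46), that of miR-218-5p without replicate 1 or 3 of either region (0.49 to 0.68), and that of miR-135a-5p without replicate 2 of the PFC or 1 or 2 of the hippocampus (-0.78 to -0.55). All 4 of these calls were also lost when the libraries of that comparison were fitted by themselves. Those of miR-383-5p and miR-128-3p were lost with every pair kept separate, those of miR-383-5p and miR-218-5p with libraries scaled to their totals alone, and that of miR-218-5p with hairpins summed. In TgR mice the call of miR-128-3p was lost without replicate 1 of the hippocampus (-0.66), and that of miR-135a-5p without replicate 3 of the PFC or 1 or 3 of the hippocampus (-0.67 to -0.63) and with scaling to totals alone. The list's median was -0.41 in FVB/N and -0.28 in TgR mice, beside 0.02 and 0.05 over all tested. In the difference of the genotype effect between regions, 0 of 18 passed by edgeR and 0 of 18 by DESeq2, against 0.464% of all tested by edgeR and 11 of all 647 by DESeq2. An unadjusted p under 0.05 was found for 2 of 18 by edgeR and 3 of 18 by DESeq2, against 8.5% and 8.36% of all.

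miR-128-3p by itself reached 295787 CPM in a PFC library, so its difference between regions bears on the share left for all other miRNAs, which TMM scaling is meant to offset. The summed level of the neuron list of 7, which holds both miR-9 arms, miR-124-3p and miR-128-3p, was 321411 to 373595 CPM in FVB/N hippocampi, 308310 to 354314 CPM in TgR hippocampi, 363990 to 456999 CPM in the FVB/N PFC and 392610 to 449067 CPM in the TgR PFC.

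Markers of other cells were read in the same libraries, and all markers of the 8 lists were detected, with at least 1 count in every library. These lists too were chosen with earlier results of these data known. The share of a list that was called is therefore descriptive and no test of a cell type. The list for choroid plexus and ependyma, the lining of the ventricles, moved with the TgR hippocampus. Its 5 members summed to 6653, 2258 and 5880 CPM in TgR hippocampi and to 1952, 1367 and 1343 CPM in FVB/N hippocampi. All 3 TgR hippocampi were above the FVB/N ones. Of the 5 markers edgeR called 3 higher in TgR hippocampi and 0 lower, against 4.64% of all tested (13 higher and 17 lower). Not called were miR-211-5p at 0.56 (SE 0.59) and miR-449a-5p at -0.59 (SE 0.42), with means of 2.51 and 1.89 CPM. The 3 called were miR-34b-3p (log2 fold change 2.58, SE 0.28), miR-34c-5p (2.43, SE 0.29) and the most abundant of the list, miR-204-5p (1.5, SE 0.33, edgeR adjusted p = 0.0227). The last call was lost without replicate 2 or 3 of the FVB/N hippocampus (log2 fold change 1.38 and 1.43) or replicate 1 or 3 of the TgR hippocampus (1.23 and 1.30). In the PFC the list gave 907 to 1048 CPM in TgR mice and 858 to 1242 CPM in FVB/N mice. There 0 of 5 passed by edgeR or DESeq2, against 1 of all 647 by each. An unadjusted p under 0.05 by edgeR was found for 1 of 5, against 3.25% of all. Between regions, edgeR called 3 of 5 higher in the hippocampus of TgR mice, against 10.2% of all tested in either direction. These were miR-204-5p (log2 fold change 2.15), miR-34b-3p (2.94) and miR-34c-5p (3.08), which held in all 16 alternatives run. In FVB/N mice edgeR called 1 of 5 higher, against 7.57% of all tested, and DESeq2 called 2 of 5, against 74 of all 647. By edgeR 3 of 5 had an unadjusted p under 0.05, against 20.9% of all. The call of edgeR was miR-449a-5p (1.78), lost in 6 of 14 alternatives (without any 1 of the 6 libraries but replicate 1 of the PFC, at 1.53 to 1.96, and with scaling to totals alone). miR-211-5p went the other way (-1.73, SE 0.57, edgeR adjusted p = 0.0778).

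The red blood cell list, led by miR-451a, was lower in TgR hippocampi, at 814, 1063 and 1092 CPM against 1763, 1859 and 1847 CPM in FVB/N hippocampi. Of its 4 markers edgeR called 0 higher and 2 lower, against 4.64% of all tested, and 4 of 4 had an unadjusted p under 0.05, against 15.1% of all. The 2 called were miR-144-5p (log2 fold change -0.99, SE 0.20, lost without replicate 2 of the FVB/N or 1 of the TgR hippocampus, at -0.83 and -0.93) and miR-486a-5p (-1.07, SE 0.26, lost without any 1 of 5 of the 6 libraries, all but replicate 3 of the TgR hippocampus, at -1.20 to -0.94, and with scaling to totals alone). Between regions, edgeR called 3 of 4 lower in the hippocampus of TgR mice, against 10.2% of all tested, and 4 of 4 had an unadjusted p under 0.05, against 23% of all. The 3 were miR-451a (-1.55), miR-144-3p (-1.24) and miR-144-5p (-1.14), which held in all 16 alternatives run. The list summed to 1966, 3814, 2211 and 2171 CPM in the TgR PFC. In FVB/N mice 0 of 4 passed by edgeR or DESeq2, against 49 and 74 of all 647, with 0 of 4 at an unadjusted p under 0.05 against 20.9% of all. For the difference of the genotype effect between regions, edgeR called 0 of 4 and DESeq2 1 of 4, against 3 and 11 of all 647. By edgeR 3 of 4 had an unadjusted p under 0.05, against 8.5% of all. The log2 differences were -1.22 for miR-451a, -0.97 for miR-144-5p, -0.89 for miR-144-3p and -0.58 for miR-486a-5p.

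The oligodendrocyte list, led by miR-219a-2-3p, separated the regions, with 2256 to 3308 CPM in FVB/N hippocampi and 2992 to 4865 CPM in TgR hippocampi against 1089 to 1436 and 1012 to 1221 CPM in the PFC. Between regions edgeR called 3 of its 4 markers higher in FVB/N and 4 of 4 in TgR hippocampi, against 7.57% and 10.2% of all tested. DESeq2 called 4 of 4 in both, against 74 and 82 of all 647. In FVB/N mice the call of miR-219a-2-3p held in all 15 alternatives, that of miR-219a-5p was lost without replicate 1 of the PFC or 1 or 2 of the hippocampus (1.07 to 1.57), with scaling to totals alone and with the libraries of that comparison by themselves, and that of miR-338-5p without replicate 2 of the PFC or 1 or 2 of the hippocampus (0.82 to 0.95). Between genotypes 0 of 4 passed in either region by edgeR or DESeq2, against 4.64% of all tested in the hippocampus and 0.155% in the PFC by edgeR. All 4 had a log2 fold change above 0 in TgR hippocampi, with a median of 0.52 beside 0.01 over all tested. In the PFC 1 of 4 was above 0, with a median of -0.16. An unadjusted p under 0.05 by edgeR was found for 1 of 4 in the hippocampus and 0 of 4 in the PFC, against 15.1% and 3.25% of all.

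The vessel list, led by miR-126a-3p, had group means of 19280 to 26461 CPM, the white blood cell and microglia list, led by miR-150-5p, 651 to 893 CPM, and the meninges and fibroblast list, led by miR-199a-3p, 154 to 213 CPM, and none of their markers passed for genotype in either region by edgeR or DESeq2, with 1 of the meningeal markers at an unadjusted p under 0.05 in the PFC. Over all tested, edgeR called 4.64% for genotype in the hippocampus and 0.155% in the PFC, where 3.25% had an unadjusted p under 0.05. Between regions in TgR mice, edgeR called 1 of the 4 white blood cell markers lower in the hippocampus, against 10.2% of all tested. It was miR-142a-5p (log2 fold change -0.56, edgeR adjusted p = 0.0178), a call lost without replicate 1 of the TgR hippocampus (-0.59), with no filter and with scaling to totals alone. In that comparison DESeq2 called 2 of 4 white blood cell, 1 of 3 meningeal and 0 of 4 vessel markers, against 82 of all 647. By edgeR 3 of 4, 2 of 3 and 2 of 4 of them had an unadjusted p under 0.05, against 23% of all. In FVB/N mice both tools called none of these, against 49 of all 647 by edgeR and 74 by DESeq2. There 3 of the 4 white blood cell markers had an unadjusted p under 0.05 by edgeR, against 20.9% of all. In single libraries the white blood cell and microglia list summed to 711, 735 and 695 CPM in TgR hippocampi, all above the 662, 672 and 618 CPM in FVB/N hippocampi, although 2 of its 4 markers had a log2 fold change above 0 and 2 below. Muscle and epithelial markers, which brain should lack, summed to 629, 687 and 746 CPM in TgR hippocampi, again all above the 402, 466 and 307 CPM in FVB/N hippocampi. Of these 5 markers, led by miR-1a-3p, all 5 had a log2 fold change above 0 there. An unadjusted p under 0.05 by edgeR was found for 1 of 5, against 15.1% of all. By edgeR or DESeq2 0 of 5 passed, against 30 and 37 of all 647. Between regions edgeR called 0 of 5 in both genotypes, against 49 of all 647 in FVB/N and 66 in TgR mice. DESeq2 called 0 of 5 in FVB/N and 1 of 5 in TgR mice, against 74 and 82 of all 647. In the PFC they summed to 352 to 664 CPM, apart from 2026 CPM in replicate 4 of the TgR mice, of which miR-1a-3p made up 1903 CPM. Whether a different share of ventricle lining, blood, white matter or muscle in the dissected tissue had a part in the level of miR-124-3p or miR-9-3p in TgR hippocampi, against FVB/N hippocampi or against the TgR PFC, was not tested.

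**Figure D5:**
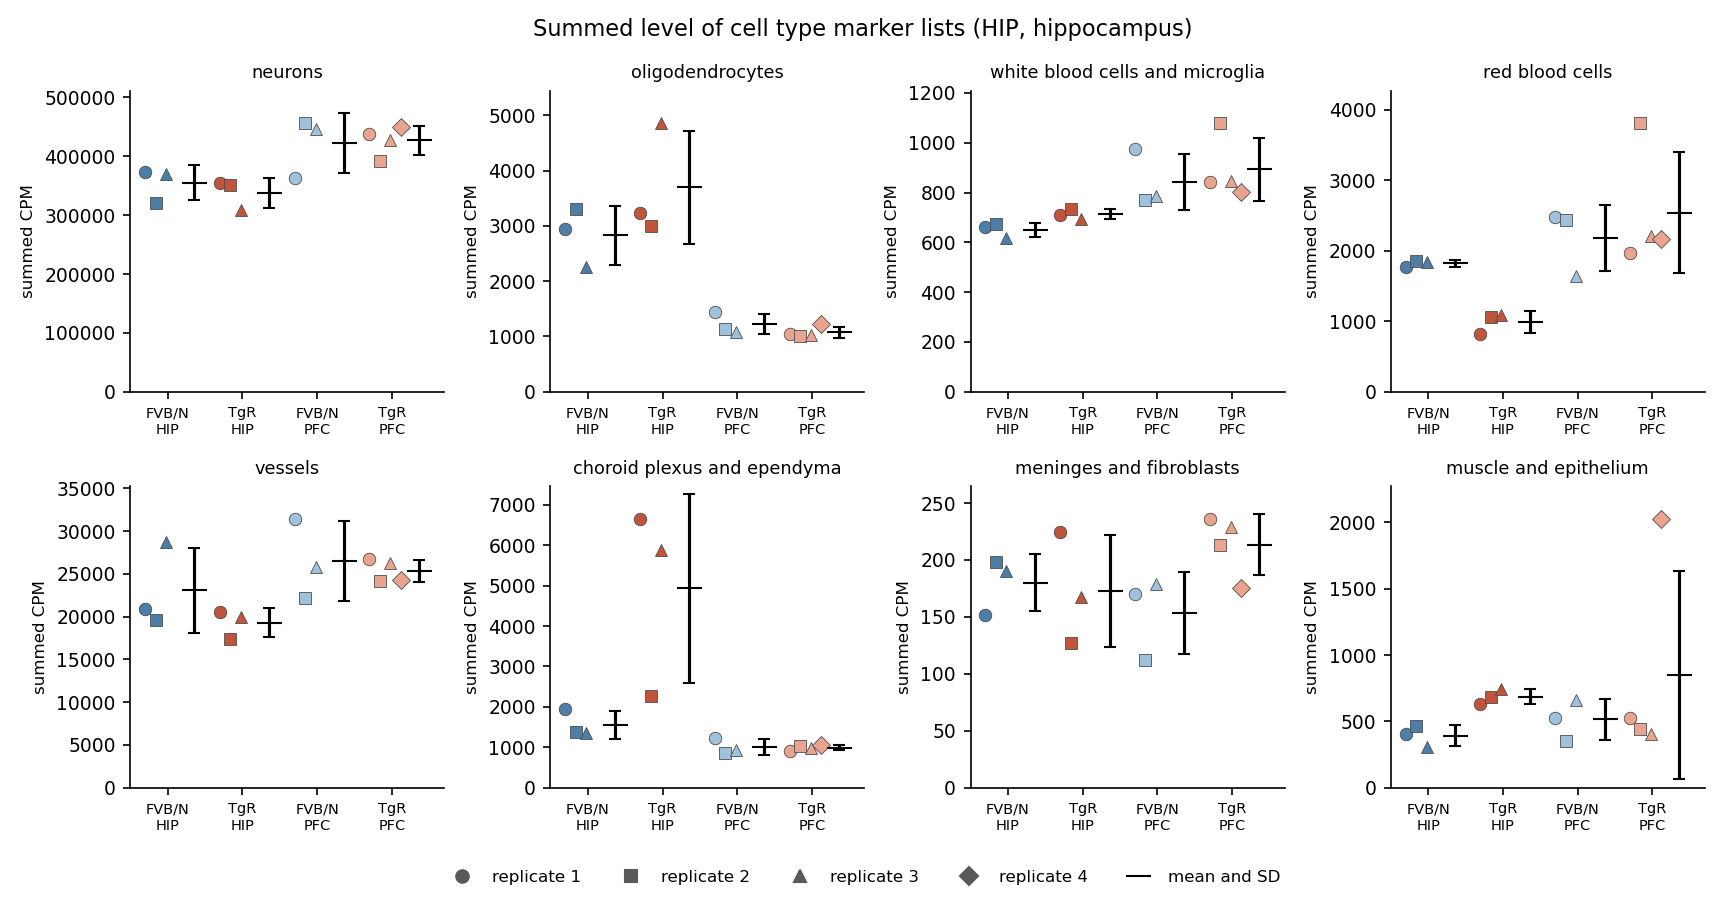
Summed CPM (vertical axes, from 0) of the 8 lists of cell type markers in each library, by group, with mean and SD. The choroid plexus and ependyma list is highest in TgR hippocampi (2258 to 6653 CPM), the red blood cell list is lowest there (814 to 1092 CPM), and the oligodendrocyte list is higher in the hippocampus of both genotypes than in the PFC.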

How the data were processed

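Total RNA of 13 tissue samples (300 ng each, RNA integrity 8.6 to 9.3) was made into small RNA libraries with the NEBNext kit and sequenced on a NextSeq instrument. The authors aligned reads to miRBase version 21 with miRExpress 2.0 and deposited raw counts per pair of hairpin and mature miRNA. A pair that a library does not list was set to 0. Groups and replicate numbers come from the sample titles. Each miRNA was taken at its largest count over hairpins, as 60 of 71 with several had counts within 5%. edgeR 4.0.16 (R 4.3.3) fitted all 13 libraries in 4 groups with TMM scaling, its default expression filter (minimum count 10) and quasi-likelihood tests, adjusted by Benjamini-Hochberg and called under 0.05. CPM are TMM scaled, and ratios were tested by exact permutation. DESeq2 1.42.0, other scalings, filters, row choices, a replicate block and leaving out each library were alternatives. No replicate pair agreed within sampling noise (chi-square per degree of freedom 42.5 to 503). That measure covers counting error only, and the replicates are separate mice. The code was tested on simulated data. The members and lists were chosen with earlier results of these data known.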

Additional observations from a re-analysis of the deposited data

Results flagged for a closer look

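Groups of 3 libraries were not tested. In the group of 4 TgR PFC libraries, a library was set apart when its gap to the nearest other took up nearly the whole range of the group by the 95% limit of Dixon. Of 16 measures 5 did so, where chance gives about 1 in 20, and they share libraries. Replicate 2, the shallowest library, had the low miR-124-5p value of 114.1 CPM and the high sums of the red blood cell list (3814 CPM) and of the white blood cell and microglia list (1080.2 CPM). Replicate 4 had the high sums of the oligodendrocyte list (1221 CPM) and of the muscle and epithelial list (2026 CPM). The cause was not tested.

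The genotype effect differed between hippocampus and PFC in 2 markers of the choroid plexus and ependyma list, which were looked at after their values were seen: miR-34b-3p by 2.56 (log2, SE 0.37, edgeR adjusted p = 0.00460) and miR-34c-5p by 2.42 (log2, SE 0.38, edgeR adjusted p = 0.00714). Both held in all 21 alternatives run. The list had 2 of 5 markers called by edgeR for this difference, against 0.464% of all tested.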

How the results depend on the processing

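Of 332 alternative values of the 20 log2 fold changes of the members, 307 kept their direction, 25 reversed and 0 crossed the threshold of edgeR or DESeq2. Of 102 alternative values of the 6 ratios, 94 kept their direction, 8 reversed and 0 crossed it. The cause of the reversals below was not tested.

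The log2 fold change of miR-9-5p for region in FVB/N mice reversed in DESeq2 (-0.0129) and with its size factors used by edgeR (-0.0129). It also did so when libraries were scaled to their totals alone (-0.0176), when the filter was dropped (-0.0185) or raised to 300 counts on average (-0.0227), and when hairpins were summed (-0.0103). Scaled to library totals alone, miR-9-5p also reversed for genotype in the hippocampus (0.0745), region in TgR mice (0.0191) and the difference of the genotype effect between regions (0.0367), and without the filter for genotype in the hippocampus (0.0336). miR-9-3p for region in FVB/N mice reversed with the raised filter (-0.000441).

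Ratios reversed within single strata. miR-9-5p to miR-124-3p gave 0.14 for region in FVB/N mice and 0.14 for genotype in the PFC, miR-124-3p to miR-124-5p gave 0.0941 for region in TgR mice and -0.13 for genotype in the PFC, and miR-9-5p to miR-9-3p gave 0.0340 for genotype in the PFC.

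Leaving out 1 library at a time gave these ranges where a direction turned. miR-124-5p ranged from -0.0442 to 0.37 for genotype in the hippocampus, -0.11 to 0.30 for region in FVB/N mice and -0.11 to 0.31 for the difference between regions. miR-9-5p ranged from -0.0910 to 0.0190 and -0.00120 to 0.10 for genotype in the hippocampus and PFC, and -0.0606 to 0.0678 for region in FVB/N mice. miR-9-3p ranged from -0.0251 to 0.0687 for genotype in the PFC and -0.0262 to 0.0616 for region in FVB/N mice, and the ratio of miR-124-3p to miR-124-5p from -0.0342 to 0.13 for genotype. Other values moved without a turn. miR-9-3p ranged from 0.11 to 0.20 for genotype in the hippocampus, 0.10 to 0.19 for region in TgR mice and 0.08 to 0.17 for the difference between regions. miR-124-3p ranged from -0.15 to -0.0064 for genotype in the PFC and -0.22 to -0.064 for region in FVB/N mice. miR-124-5p ranged from 0.13 to 0.23 for region in TgR mice.

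The number of miRNAs past the threshold moved more. Without 1 library it was 9 to 18 in place of 30 for genotype in the hippocampus (any of the 6), 24 to 50 in place of 49 for region in FVB/N mice, 29 to 60 in place of 66 for region in TgR mice and 2 to 8 in place of 3 for the difference between regions, with fewer libraries to test. For region in FVB/N mice it was 74 with DESeq2 and 22 with the libraries of that comparison only. For the difference between regions it was 11 with DESeq2 and 16 with no filter, and for genotype in the PFC it was 2 with no filter.

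Scaling to library totals alone moved the median, over all tested miRNAs, of the difference of the genotype effect between regions by 0.12. It turned 13 higher and 17 lower for genotype in the hippocampus into 15 and 11, and 35 higher and 31 lower for region in TgR mice into 53 and 22.

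Replicate numbers were not taken to pair the regions. Between libraries of both regions with the same number in their titles, deviations from the group mean correlated at 0.109, 0.0697 and 0.196 for replicates 1 to 3 of FVB/N and at 0.0785, 0.382 and -0.151 for those of TgR mice, and the same number was the best match for 3 of 6. For 2 of the 3 FVB/N PFC libraries the deposited files carry another number than the titles, on which these pairs and the block depend. With a replicate block, 5 in place of 3 miRNAs passed for the difference between regions, and for region in FVB/N mice the calls of miR-128-3p (log2 fold change -0.58) and miR-383-5p (-0.82) were lost.

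These are 3 or 4 mice per group, without age or sex in the labels, and the hairpins of a family cannot be separated by their reads. Depth did not limit the members, which had at least 628 counts in every library. Targets of these miRNAs, other RNA classes and the proteins they act on were not analysed here.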
